A study of Homo sapiens with 4 samples.

Results

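The genes described here are 37 components of the endoplasmic reticulum (ER) that fold, inspect or destroy newly made proteins, or that sense when this work falls behind. They were chosen by name for these known functions, with earlier results of these data known. They were found by gene symbol among the 61498 genes of the expression files. All 37 matched 1 gene identifier each. Poly(A) RNA was sequenced from K562, a human erythroleukaemia line that can be moved toward the erythroid state. The 2 untreated libraries came from cells that received no agent, and the 2 hemin-treated libraries came from cells kept for 108 h with 50 µM hemin, an iron-containing porphyrin. The study used this pair of conditions to ask how gene expression changed on differentiation. K562 is a single cancer line, so the libraries describe this line and not normal erythroid precursors.

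Secreted and membrane proteins enter the ER through the SEC61 channel and are folded there by the HSP70 protein BiP (gene HSPA5), the HSP90 protein GRP94 (HSP90B1), sugar-binding chaperones and enzymes that form and shuffle disulfide bonds. Proteins that do not fold are passed back to the cytosol and degraded, a route called ER-associated degradation. When unfolded proteins accumulate, the sensor ATF6 moves to the Golgi and is cut into a transcription factor, the sensor IRE1 (ERN1) splices the RNA of the factor XBP1, and the sensor PERK slows translation. ATF6 is best known for inducing chaperone genes, and XBP1 for inducing degradation, translocation and some folding genes. In erythroid cells this machinery folds surface proteins, whereas globins are made in the cytosol.

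The ATF6 factor binds, together with NF-Y, to short promoter elements. The ER stress response element (ERSE) has the letters CCAAT and CCACG with any 9 bases between them, and ERSE-II has the letters ATTGG and CCACG with any 1 base between them. Both were searched on both strands in the RefSeq promoters of GRCh38.p14, which run from 250 bases before to 50 bases after each start. An entry was found for 34 of the 37 genes, all but PDIA3, DERL1 and DERL3. ERSE was present in 8 of these 34 genes (23.5%), beside 15 of 10024 tested genes with an entry (0.15%). Those 15 include the 8 members, and 7 were other genes. Counted by promoter entry rather than by gene, ERSE was in 27 of all 35116 (0.0769%). ERSE-II was present in 3 of the 34 genes (8.82%), beside 11 of the 10024 tested genes (0.11%) and 19 of all promoter entries (0.0541%). Those 11 include the 3 members, and 8 were other genes. The 2 elements did not occur in the same member promoter. The members were chosen as ER folding and stress genes and include known ATF6 targets, so the higher shares describe the list and are no test. The sequences below are shown because they are the element copies of the genes whose RNA was lower after hemin. Each is written 5′ to 3′ on the strand of its gene, and capitals mark the 2 five-letter parts of the element. On the strand of its gene, ERSE reads CCAAT then CCACG, or CGTGG then ATTGG where the element lies on the opposite strand. ERSE-II reads ATTGG then CCACG, or CGTGG then CCAAT where it lies on the opposite strand.
HSPA5, chr9:125241371-125241429, minus strand: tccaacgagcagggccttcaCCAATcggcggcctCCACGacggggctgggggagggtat
HSP90B1 distal copy, chr12:103930196-103930254, plus strand: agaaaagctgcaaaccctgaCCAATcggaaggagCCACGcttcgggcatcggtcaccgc
HSP90B1 proximal copy, chr12:103930301-103930359, plus strand: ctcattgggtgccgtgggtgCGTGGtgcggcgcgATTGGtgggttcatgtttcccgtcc
CALR, chr19:12938364-12938422, plus strand: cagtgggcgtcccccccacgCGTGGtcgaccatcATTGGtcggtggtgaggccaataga
PDIA6, chr2:10812833-10812891, minus strand: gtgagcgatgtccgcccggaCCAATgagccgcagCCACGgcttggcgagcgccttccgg
HERPUD1, chr16:56932005-56932055, plus strand: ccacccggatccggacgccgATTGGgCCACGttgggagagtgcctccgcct
SDF2L1, chr22:21642094-21642144, plus strand: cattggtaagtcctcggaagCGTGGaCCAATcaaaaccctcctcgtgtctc
HYOU1 distal copy, chr11:119057360-119057410, minus strand: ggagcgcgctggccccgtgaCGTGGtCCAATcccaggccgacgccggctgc
HYOU1 proximal copy, chr11:119057254-119057304, minus strand: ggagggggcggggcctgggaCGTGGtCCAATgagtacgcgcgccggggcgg

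The first 5 sequences hold ERSE, and the last 4 hold ERSE-II. The near edge of the element lay 48 bases before the start in HSPA5 and 107 bases before it in HERPUD1. HSP90B1 carried copies 176 and 71 bases before the start, and HYOU1 carried copies 175 and 69 bases before it. Both genes thus held a distal and a proximal copy at nearly the same distances.

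The following sequences are shown for contrast, since they are ERSE copies of genes whose RNA did not pass the test.
CANX, chr5:179698758-179698816, plus strand: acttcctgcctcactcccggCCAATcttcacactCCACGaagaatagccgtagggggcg
XBP1, chr22:28800583-28800641, minus strand: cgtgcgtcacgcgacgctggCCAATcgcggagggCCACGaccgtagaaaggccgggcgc
CRELD2, chr22:49918534-49918592, plus strand: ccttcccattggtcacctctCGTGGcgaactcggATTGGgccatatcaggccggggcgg

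The fourth such gene was ERO1B, whose ERSE lay 225 bases before the start at its near edge. A letter match describes the promoter sequence and is not evidence of bound protein, and the absence of a match says only that these letters are not in this window.

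The libraries were of similar depth. Expected counts, RSEM's estimates of reads per gene, were between 7455447 and 7801824 in total for the untreated libraries and between 7513843 and 8241534 for the hemin-treated ones. The K562 and erythroid markers were read in all 4 libraries, with GATA1 at 113 to 121 TPM and embryonic globin HBE1 at 2228 to 2972 TPM. TPM is a transcript level scaled for gene length and library total, so that genes can be set beside each other. Of the markers of other cell types reported here, CD3E and MS4A1 were at 0, CD14, COL1A1 and KRT5 were at or below 1.19 TPM, and EPCAM was at 42.4 to 49.2 TPM. EPCAM did not pass edgeR's test (log2 fold change 0.08, adjusted p = 0.65). Nothing in the labels says that the replicates came from separate cultures, so the p-values measure the spread between these libraries, which may be technical.

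After hemin, the RNA of 13 of the 36 tested members fell and that of none rose at an adjusted p under 0.05. The test was edgeR's quasi-likelihood test on expected counts with Benjamini-Hochberg adjustment over all 14458 genes tested. It is the source of each fold change and adjusted p below, unless another test or setting is named. Each standard error (SE) was derived from it, as the size of the log2 fold change over the square root of the F statistic. Among all genes tested, 7.14% were lower and 7.0% were higher, and 36.1% of the tested members were lower. These shares were not matched for read number, and a change of a given size is called more readily in a gene with more reads. At an unadjusted p under 0.05, 20 members were lower and 2, CANX and SEC61A1, were higher, beside 14.6% and 14.8% of all genes. DESeq2 called 12 members lower and 1, CANX, higher. The median log2 fold change was -0.18 over the tested members and close to 0 over all genes (-0.005), and 28 members had a negative and 8 a positive value. In bulk RNA, fewer cells with a transcript and less of it per cell cannot be told apart.

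In CPM, which are counts scaled to library size but not to gene length, both hemin libraries lay below both untreated libraries in 26 of the 36 members, against 34.7% of all genes. They lay above in 3 members, against 23.1% of all genes, and the groups overlapped in 7. The summed level of the 37 members was 5158 and 5189 TPM in untreated cells and 4530 and 4458 TPM in hemin-treated cells, a change of -13.1%. The groups did not overlap.

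**Figure D1:**
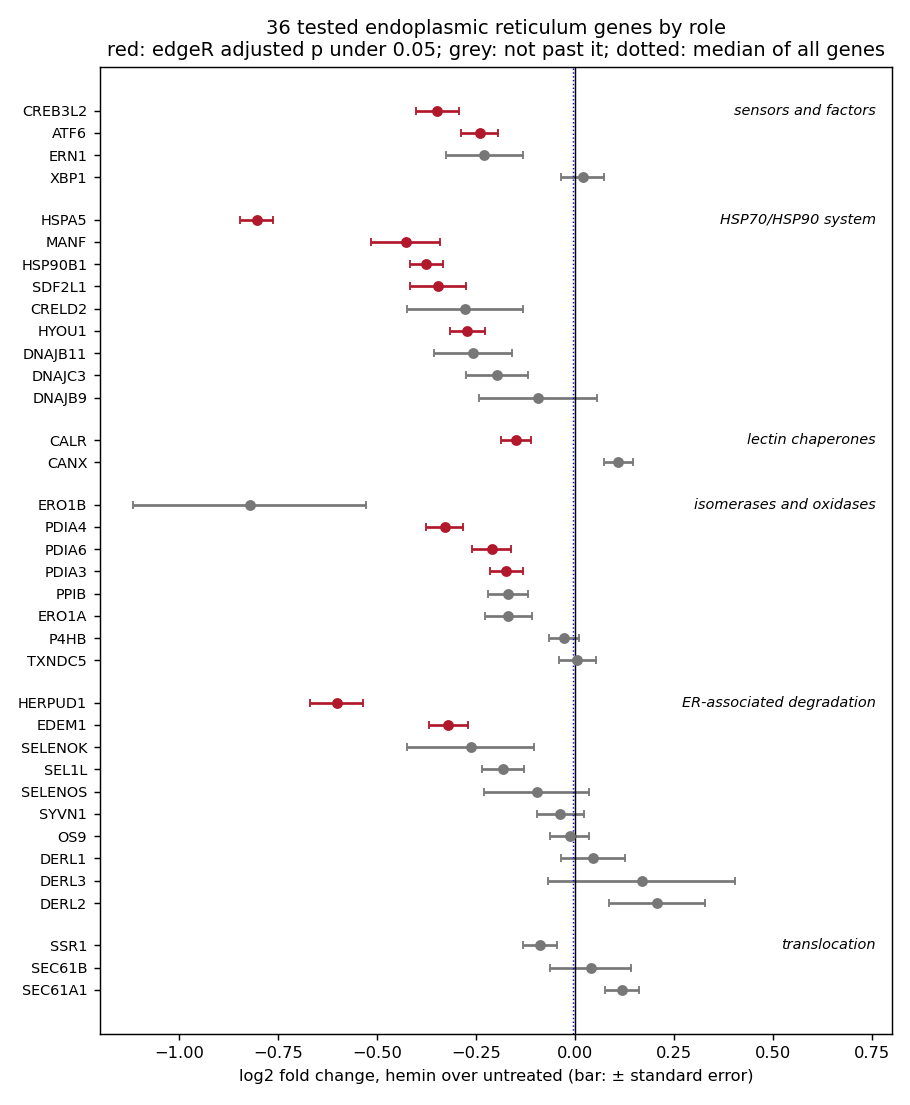
Log2 fold change of hemin-treated over untreated cells for the 36 tested ER genes (x axis; bars are ± SE), grouped by role and ordered within each role. Red points passed an edgeR adjusted p under 0.05, grey points did not, and the dotted line is the median of all genes tested. The 13 red points all lie left of 0, with HSPA5 (-0.80) and HERPUD1 (-0.60) farthest among them, and the translocation genes lie near 0.

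Among the sensors and their transcription factors, 2 of the 4 tested genes fell, and the median log2 fold change of the group was -0.24. ATF6, the Golgi-activated sensor, was read at 79.3 and 79.4 TPM in untreated cells and at 73.9 and 68.4 TPM after hemin. The hemin values lay below the untreated ones. Its log2 fold change was -0.24 ± 0.05 (SE; adjusted p = 0.00966), a change of -15.4% in counts. The fall in TPM was smaller, with means of 79.3 and 71.2, and limma on log2(TPM + 1) gave -0.16 (adjusted p = 0.436). The gene length used for TPM was shorter after hemin, at 3781 and 3814 against 4176 and 4032 bases in untreated cells. CREB3L2, an ER-bound factor of the same cleaved type, was read at 19.4 and 19.6 TPM in untreated cells and at 14.3 and 15.0 TPM after hemin. The conditions did not overlap, and the log2 fold change was -0.35 ± 0.06 (adjusted p = 0.00438).

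The IRE1 arm showed no change that passed the test at the level of its sensor and factor. XBP1, the substrate of IRE1, was read at 156 and 167 TPM in untreated cells and at 171 and 156 TPM after hemin. These values overlapped, and the log2 fold change was 0.02 ± 0.06 (adjusted p = 0.865). A gene total does not separate spliced from unspliced XBP1 RNA, so it does not measure the activity of IRE1. ERN1, the gene of IRE1 itself, had expected counts of 239 and 223 in untreated cells and 203 and 193 after hemin. Its log2 fold change was -0.23 ± 0.10 (adjusted p = 0.153), and its TPM overlapped between the conditions (5.77 and 9.86 against 5.17 and 6.12). WFS1, an ER membrane protein that restrains ATF6, was at 0 counts in all 4 libraries, which allows up to 3 counts per library, or 0.364 to 0.402 CPM, and it was not tested.

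In the HSP70 and HSP90 system, 5 of 9 genes fell, all 9 log2 fold changes were negative (that of DNAJB9 was positive by limma and without hemin replicate 2), and the median was -0.28. HSPA5, the gene of BiP, lies on the minus strand at chr9:125234853-125241382 of GRCh38. It was read at 498 and 514 TPM in untreated cells and at 278 and 286 TPM after hemin. The 2 conditions were far apart relative to the gap between replicates, with expected counts of 6824 and 6726 against 3686 and 4123. The log2 fold change was -0.80 ± 0.04 (adjusted p = 1.85e-05), a change of -42.7%, which was the largest fall among the 13 lower members. HSPA5 was the second most abundant member in untreated cells, after CANX.

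The other abundant chaperones of this group fell by less. HSP90B1, the gene of GRP94, was read at 389 and 398 TPM in untreated cells and at 294 and 304 TPM after hemin. Both hemin values lay below both untreated values, and the log2 fold change was -0.38 ± 0.04 (adjusted p = 0.000766). HYOU1, a large HSP70-type protein that acts as an exchange factor for BiP, was read at 155 and 148 TPM in untreated cells and at 119 and 115 TPM after hemin. There was no overlap between the conditions, and the log2 fold change was -0.27 ± 0.05 (adjusted p = 0.00516). The promoters of both genes held a pair of element copies, as printed above.

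SDF2L1, which works with BiP and its J-domain partners, was read at 172 and 181 TPM in untreated cells and at 144 and 126 TPM after hemin. The hemin libraries were the lower ones and the log2 fold change was -0.35 ± 0.07 (adjusted p = 0.013). MANF, a secreted survival factor that binds BiP, was read at 65.8 and 68.2 TPM in untreated cells and at 46.9 and 46.5 TPM after hemin. The conditions did not overlap, and the log2 fold change was -0.43 ± 0.09 (adjusted p = 0.0134), but DESeq2 did not call it (adjusted p = 0.0648).

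Of the 3 J-domain co-chaperones that hand clients to BiP, none passed the test as reported. DNAJB11 was read at 46.7 and 55.6 TPM in untreated cells and at 38.97 and 44.98 TPM after hemin, with a log2 fold change of -0.26 ± 0.10 (adjusted p = 0.115). It passed with the replicate number as a block (adjusted p = 0.0463), with no count filter (adjusted p = 0.0244) and without untreated replicate 1 (adjusted p = 0.0425). DNAJC3 was near 12 TPM in untreated cells (12.4 in both libraries) and at 11.0 and 12.0 TPM after hemin (-0.20 ± 0.08, adjusted p = 0.129). DNAJB9, an XBP1 target, was read at 12.8 and 10.3 TPM in untreated cells and at 15.5 and 9.13 TPM after hemin, values that overlapped (-0.09 ± 0.15, adjusted p = 0.736). CRELD2, a lumenal protein known as an ATF6 target, had expected counts of 126 and 118 in untreated cells and 108 and 94 after hemin. Its log2 fold change of -0.28 ± 0.15 did not pass (adjusted p = 0.246), and its TPM overlapped (14.8 and 15.3 against 15.2 and 11.0).

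**Figure D2:**
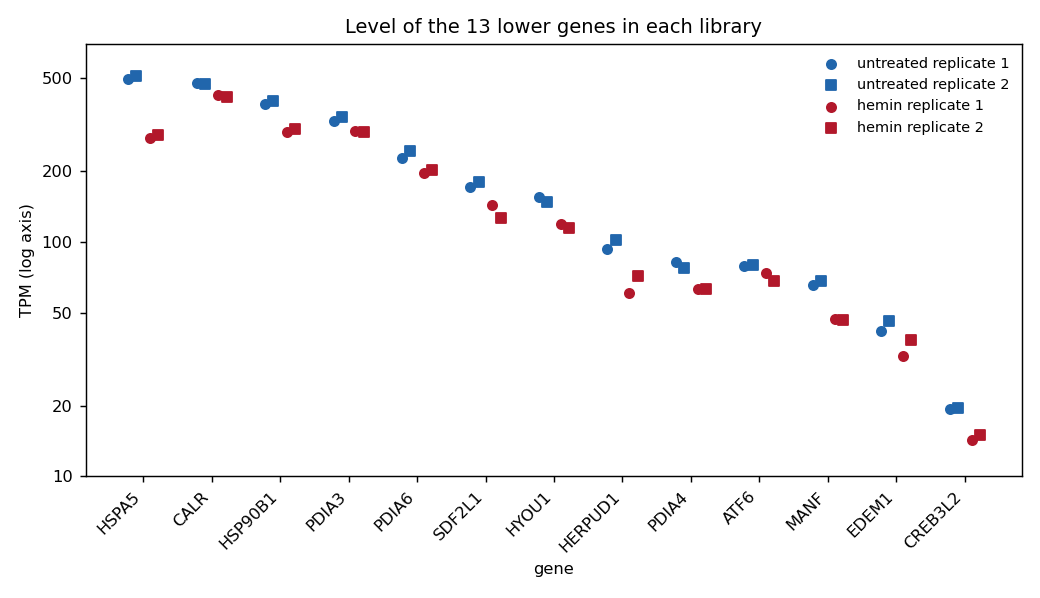
Level in TPM (y axis, logarithmic) of the 13 ER genes that were lower after hemin, in each library, ordered by their level in untreated cells. Blue symbols are untreated and red symbols hemin-treated libraries, circles are replicate 1 and squares replicate 2. In each of the 13 genes both red symbols lie below both blue ones, and the gap is widest for HSPA5 (498 and 514 against 278 and 286 TPM).

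The lectin chaperones calreticulin and calnexin hold glycoproteins by the same sugar trim but had log2 fold changes of opposite sign. CALR, the soluble form, was read at 478 and 472 TPM in untreated cells and at 423 and 418 TPM after hemin. Both hemin values lay below both untreated values, and the log2 fold change was -0.15 ± 0.04 (adjusted p = 0.0298), a change of -9.87%. CANX, the membrane form and the most abundant member, was read at 726 and 677 TPM in untreated cells and at 709 and 756 TPM after hemin. Its TPM overlapped, its log2 fold change was 0.11 ± 0.04 (adjusted p = 0.081), and DESeq2 called it higher (adjusted p = 0.0451). The difference between the genes was not itself tested. CALR did not pass when any 1 of the 4 libraries was left out.

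Among the disulfide and proline isomerases and the ER oxidases, 3 of 8 genes fell and the median log2 fold change was -0.17. PDIA4, a disulfide isomerase found with BiP, was read at 81.9 and 77.7 TPM in untreated cells and at 63.1 and 63.2 TPM after hemin. There was no overlap between the conditions, and the log2 fold change was -0.33 ± 0.05 (adjusted p = 0.00293). PDIA6, which reduces disulfides and also attenuates the sensors, was read at 229 and 244 TPM in untreated cells and at 197 and 203 TPM after hemin. These also did not overlap (-0.21 ± 0.05, adjusted p = 0.0226). PDIA3, the isomerase that partners the lectin chaperones, was read at 328 and 341 TPM in untreated cells and at 298 and 296 TPM after hemin, again without overlap (-0.17 ± 0.04, adjusted p = 0.0244).

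P4HB, the founding disulfide isomerase and the fourth most abundant member, was read at 404 and 397 TPM in untreated cells and at 390 and 383 TPM after hemin. Its groups did not overlap, but the difference of -0.03 ± 0.04 on the log2 scale was less than its error (adjusted p = 0.693). TXNDC5, another thioredoxin-type isomerase, was at 96.3 and 95.6 TPM in untreated cells and at 97.7 and 90.1 TPM after hemin, which overlapped (0.01 ± 0.05, adjusted p = 0.952). TXNDC5 shares 2658 exonic bases with BLOC1S5-TXNDC5 on the same strand, so its count depends on how RSEM divided those reads. The changes of the 3 lower isomerases were -20.4% for PDIA4, -13.6% for PDIA6 and -11.4% for PDIA3, and differences between these genes were not tested.

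ERO1A, the oxidase that recharges the isomerases, was read at 42.4 and 43.2 TPM in untreated cells and at 38.5 and 39.0 TPM after hemin (-0.17 ± 0.06, adjusted p = 0.0864). PPIB, the ER proline isomerase cyclophilin B, was read at 379 and 374 TPM in untreated cells and at 348 and 311 TPM after hemin (-0.17 ± 0.05, adjusted p = 0.0568). Neither passed as reported, although in both the hemin libraries lay below the untreated ones. With scaling by library size only, both passed (adjusted p = 0.0442 for ERO1A and 0.0274 for PPIB). PPIB also passed with no count filter (adjusted p = 0.0296), on RSEM's posterior mean counts (adjusted p = 0.0249) and with a minimum of 20 counts. With a library left out, the log2 fold change of PPIB ran from -0.23 without hemin replicate 1 to -0.103 without hemin replicate 2. ERO1B, the second oxidase, rested on few reads, with expected counts of 42 and 32 in untreated cells and 18 and 24 after hemin. Its log2 fold change of -0.82 ± 0.29 was as large as that of HSPA5 but did not pass (adjusted p = 0.095), and its TPM overlapped (3.34 and 1.19 against 1.34 and 1.81). Of the alternatives, ERO1B passed only with a minimum of 20 counts.

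Of the 10 degradation genes, 2 were lower, and the median log2 fold change was -0.07. The 8 that did not pass ran from -0.26 (SELENOK) to 0.21 (DERL2), several of them on few reads. HERPUD1, a membrane protein that organises the retrotranslocation complex, lies on the plus strand at chr16:56932142-56944864. It was read at 92.9 and 102 TPM in untreated cells and at 60.7 and 71.3 TPM after hemin. The conditions did not overlap, and the log2 fold change was -0.60 ± 0.07 (adjusted p = 0.00076), a change of -34.1% and the second largest fall among the lower members. EDEM1, which trims mannose from glycoproteins marked for destruction, was read at 41.7 and 46.0 TPM in untreated cells and at 32.6 and 38.3 TPM after hemin. Both hemin values lay below both untreated values, and the log2 fold change was -0.32 ± 0.05 (adjusted p = 0.00395).

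The core of the ubiquitin ligase did not pass the test. SEL1L, the adaptor of the ligase, was read at 28.1 and 34.5 TPM in untreated cells and at 27.5 and 21.1 TPM after hemin (-0.18 ± 0.05, adjusted p = 0.0505). SYVN1, the ligase HRD1, was read at 42.1 and 41.2 TPM in untreated cells and at 39.3 and 41.9 TPM after hemin (-0.04 ± 0.06, adjusted p = 0.739). SEL1L lay just outside the threshold with no overlap between conditions, whereas SYVN1 overlapped. SEL1L passed with scaling by library size only (adjusted p = 0.0224), on RSEM's posterior mean counts (adjusted p = 0.032) and with a minimum of 20 counts. OS9, a lectin that delivers clients to the ligase, was read at 83.8 and 73.9 TPM in untreated cells and at 84.1 and 81.0 TPM after hemin, which overlapped (-0.01 ± 0.05, adjusted p = 0.887). OS9 shares 1378 exonic bases with AGAP2-AS1 on the same strand.

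The derlins, membrane proteins of the exit channel, had positive log2 fold changes, none of which passed, and those of DERL1 and DERL3 turned negative under some alternatives. DERL1 was read at 44.9 and 57.9 TPM in untreated cells and at 47.6 and 47.5 TPM after hemin (0.05 ± 0.08, adjusted p = 0.767). DERL2 was read at 25.77 and 25.04 TPM in untreated cells and at 33.8 and 28.8 TPM after hemin (0.21 ± 0.12, adjusted p = 0.302). DERL2 was the only derlin whose TPM did not overlap. DERL3 had expected counts of 45 and 56 in untreated cells and 63 and 51 after hemin (0.17 ± 0.24, adjusted p = 0.697), with a TPM of 5.92 and 8.31 against 13.4 and 7.07. Its value is uncertain, because 2923 of its exonic bases overlap SMARCB1 on the opposite strand and the posterior SD from RSEM reached 11.0% of its count.

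The selenoproteins SELENOK and SELENOS, which bind the derlin complex, were read at low levels. SELENOK had expected counts of 86 and 80 in untreated cells and 64 and 75 after hemin, with a TPM of 20.9 and 20.7 against 16.6 and 18.4 (-0.26 ± 0.16, adjusted p = 0.317). SELENOS was read at 20.9 and 27.7 TPM in untreated cells and at 21.1 and 23.4 TPM after hemin, which overlapped (-0.10 ± 0.13, adjusted p = 0.683). SELENOK had the largest change in size among the degradation genes that did not pass.

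None of the 3 translocation genes passed the test, and their median log2 fold change was 0.04. SEC61A1, the pore of the channel, had expected counts of 1558 and 1435 in untreated cells and 1557 and 1710 after hemin (0.12 ± 0.04, adjusted p = 0.0963). Its TPM overlapped, at 98.5 and 86.6 against 92.5 and 87.3, and limma on log2 TPM gave it a negative sign (-0.04). SEC61B, a small subunit, was read at 128 and 136 TPM in untreated cells and at 147 and 119 TPM after hemin (0.04 ± 0.10, adjusted p = 0.847). SSR1, a subunit of the translocon-associated complex, was read at 129 and 128 TPM in untreated cells and at 121 and 112 TPM after hemin (-0.09 ± 0.04, adjusted p = 0.205). SSR1 was the only one of the 3 whose TPM did not overlap.

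By known transcriptional branch, the genes assigned to ATF6 were the ones most often lower. Of the 9 ATF6 targets listed (HSPA5, HSP90B1, CALR, PDIA4, HYOU1, SDF2L1, MANF, CRELD2 and HERPUD1), 8 fell, with CRELD2 the exception, and the median log2 fold change was -0.35. Of the 8 IRE1-XBP1 targets (DNAJB9, DNAJC3, DNAJB11, PDIA6, EDEM1, SEC61A1, SEC61B and SSR1), 2 fell (PDIA6 and EDEM1), and the median was -0.15. Several of these genes answer to both factors, and the lists were drawn from general knowledge with earlier results of these data in view, so the branch counts are a description and no test of the difference was made. The counts also depend on read number. CRELD2 (-0.28 ± 0.15) had expected counts of 126 and 118 in untreated cells, and the called HYOU1 (-0.27 ± 0.05) had 3216 and 3036. DNAJB11 (-0.26 ± 0.10) and DNAJC3 (-0.20 ± 0.08) were not called, whereas CALR (-0.15 ± 0.04) was. The RNA of ATF6 itself was 15.4% lower in counts and less so in TPM, but the amount of cleaved ATF6 protein was not measured.

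By function, 9 of 19 folding genes and 2 of 10 degradation genes fell, with medians of -0.21 and -0.07. Of all genes tested, 7.14% were lower. These counts also depend on read number, and the difference between the lists was not tested. The summed level of the folding genes was 4130 ± 6.3 TPM (SD, n = 2) in untreated cells and 3522 ± 8.24 TPM (SD, n = 2) after hemin, a change of -14.7%. HSPA5 alone made up 223 of the 607 TPM lost, or 36.7%. Without HSPA5 the folding genes summed to 3624 TPM in untreated cells and to 3240 TPM after hemin, a change of -10.6%. The decrease in the folding pool was therefore not that of BiP alone. Over the alternative settings, the median of the ATF6 targets ran from -0.43 to -0.33 and that of the IRE1-XBP1 targets from -0.18 to -0.11. These settings refit the same 4 libraries, so the ranges do not test a difference between the branches.

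**Figure D3:**
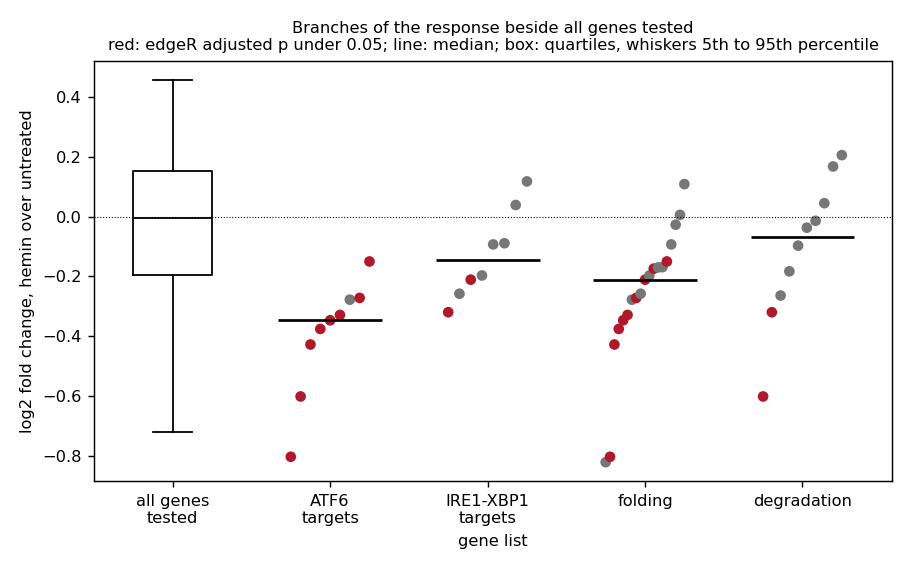
Log2 fold change of hemin-treated over untreated cells (y axis) for the members of each branch and function, beside a box plot of all 14458 genes tested (box, quartiles; whiskers, 5th to 95th percentile). Points are genes, red ones passed an edgeR adjusted p under 0.05, lines are medians, and a gene may stand in more than 1 list. The ATF6 targets have 8 of 9 points in red and a median of -0.35, whereas the degradation genes have 2 of 10 and a median of -0.07. Whether a point is red also depends on read number.

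The promoter elements described above were set beside the fold changes. Of the 11 members with ERSE or ERSE-II, 7 were lower and the median log2 fold change was -0.28. Of the 22 tested members with a promoter entry and neither element, 5 were lower (ATF6, CREB3L2, MANF, PDIA4 and EDEM1) and the median was -0.17. All 3 genes with ERSE-II (HYOU1, HERPUD1 and SDF2L1) were lower, and 4 of the 8 with ERSE (HSPA5, HSP90B1, CALR and PDIA6) were lower. Of all genes tested, 7.14% were lower. The groups were not matched for read number, and differences between them were not tested.

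Outside the members, 15 tested genes carried ERSE or ERSE-II, of which 1 was lower, none was higher, and the median was -0.04. Among all genes tested, 7.14% were lower and 7.0% were higher. The lower one was NUCB1, a Golgi calcium-binding protein that restrains ATF6 cleavage. Its expected counts were 2368 and 2277 in untreated cells and 2064 and 2113 after hemin, with a log2 fold change of -0.16 ± 0.05 (adjusted p = 0.0431). NUCB1 did not pass with DESeq2 (adjusted p = 0.0967), with the replicate number as a block, or when untreated replicate 1, untreated replicate 2 or hemin replicate 2 was left out. Others were FICD, which modifies BiP (-0.30 ± 0.34, adjusted p = 0.618), SERP1, a translocon-associated protein (-0.03 ± 0.06, adjusted p = 0.829), and ALG12, a mannosyltransferase of the ER that shares its promoter region head to head with CRELD2 (0.17 ± 0.13, adjusted p = 0.432). These 3 were chosen for their ER function after their values were seen. The elements were thus found in genes that fell and in genes that did not. Some of the 15 had wide errors, such as 0.34 for FICD and 0.21 for ZNF17, so a change there could be missed.

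The XBP1-type core TGACGTGG was found in 2 members, TXNDC5 and HYOU1 (5.88%), beside 1.22% of tested genes and 0.729% of all promoter entries. In HYOU1 it overlapped the distal ERSE-II copy. The letters CCACG alone are also part of both stress elements. They were found in 26 of the 34 members (76.5%), beside 57.4% of tested genes and 38.1% of all promoter entries.

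**Figure D4:**
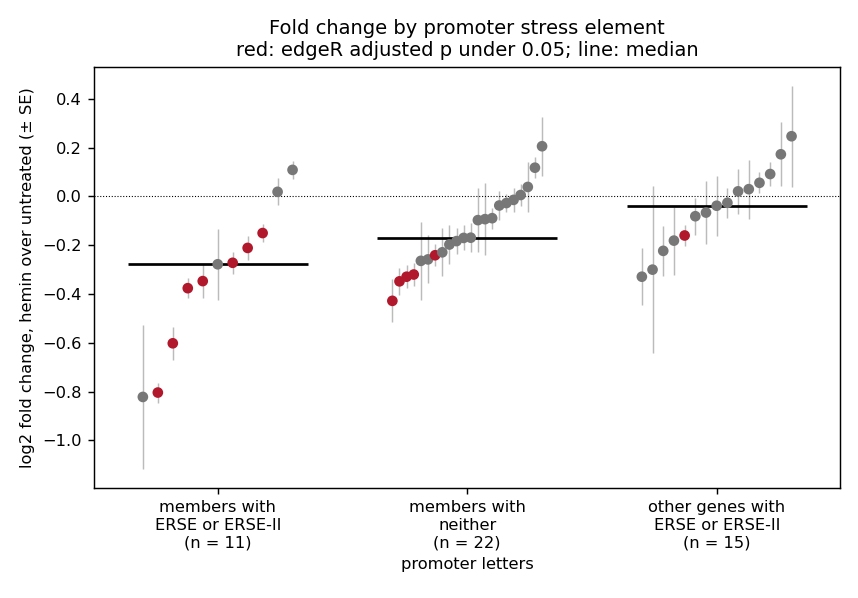
Log2 fold change of hemin-treated over untreated cells (y axis; bars are ± SE) for the members whose promoter holds ERSE or ERSE-II, the members with neither, and the other tested genes with either element. Points are genes, red ones passed an edgeR adjusted p under 0.05, and lines are medians. The medians are -0.28, -0.17 and -0.04, with 7 of 11, 5 of 22 and 1 of 15 points in red.

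The wider pathway was followed in 111 further ER genes in 7 lists, of which 109 could be tested. There, 13 genes (11.9%) were lower and 3 were higher, with a median log2 fold change of -0.03, nearer to the background than the 37 members. Among 22 other lumenal folding factors, 4 were lower and none was higher, with a median of -0.16. The largest called fall in that list was SIL1, an exchange factor for BiP, with expected counts of 208 and 201 in untreated cells and 160 and 134 after hemin. Its log2 fold change was -0.48 ± 0.13 (adjusted p = 0.0347). SIL1 did not pass with DESeq2 (adjusted p = 0.117) or without untreated replicate 1, untreated replicate 2 or hemin replicate 2, and its log2 fold change ran from -0.67 to -0.30 with a library left out.

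Of 23 other genes of translocation, signal cleavage and glycan transfer, none was lower and 1 was higher. This was SPCS2, a signal peptidase subunit, with expected counts of 331 and 358 in untreated cells and 436 in both hemin libraries (0.33 ± 0.09, adjusted p = 0.0322). Its posterior SD reached 10.7% of the count, and its TPM overlapped. SPCS2 did not pass with DESeq2 (adjusted p = 0.0683), with the replicate number as a block, or without untreated replicate 1 or hemin replicate 1. Of 22 other degradation genes, 2 were lower and 1 was higher, with a median of -0.005. MAN1B1, a mannosidase that trims glycoproteins, was lower (441 and 442 against 341 and 375 expected counts; -0.31 ± 0.07, adjusted p = 0.0198). VCP, the ATPase that pulls clients out of the membrane, was higher (1481 and 1431 against 1647 and 1749 expected counts; 0.21 ± 0.04, adjusted p = 0.0117). MAN1B1 did not pass with DESeq2 (adjusted p = 0.103) or without untreated replicate 2 or hemin replicate 1, and VCP did not pass without untreated replicate 1.

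The PERK branch had 2 lower genes of 6 and a median of -0.06. DDIT3, the gene of the stress factor CHOP, had expected counts of 229 and 222 in untreated cells and 172 and 174 after hemin (-0.39 ± 0.09, adjusted p = 0.0247), and TRIB3, a CHOP target, was the other. Neither passed with DESeq2 (adjusted p = 0.179 for DDIT3 and 0.144 for TRIB3), and DDIT3 lost the call without untreated replicate 1, untreated replicate 2 or hemin replicate 2. ATF4, the translationally controlled factor of this branch, did not pass (0.09 on the log2 scale, adjusted p = 0.162). Of 9 tested genes among the other sensors, proteases and ER-bound factors, NUCB1 alone was lower. None of the 7 genes of UFM1 conjugation passed, and their median was -0.03.

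Among 20 genes of ER-to-Golgi transport, 4 were lower and 1 was higher, with a median of -0.08. SEC24B and SEC24D are coat adaptors that select cargo for the same kind of vesicle. SEC24D had expected counts of 274 and 266 in untreated cells and 168 and 160 after hemin (-0.73 ± 0.10, adjusted p = 0.00187). SEC24B had expected counts of 402 and 411 in untreated cells and 466 and 549 after hemin (0.31 ± 0.07, adjusted p = 0.0233). SEC24D also passed with DESeq2 and with each library left out, whereas SEC24B did not pass with DESeq2 (adjusted p = 0.06) or without untreated replicate 1 or hemin replicate 2.

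The 13 lower members differed in how far they depended on single libraries. When each library was left out in turn, 7 remained past the threshold in all 4 refits (CREB3L2, HSPA5, HSP90B1, HYOU1, PDIA4, HERPUD1 and EDEM1). The other 6 lost the call at least once. ATF6 lost it without untreated replicate 1 (adjusted p = 0.052), MANF without untreated replicate 1 or hemin replicate 2, and SDF2L1 without untreated replicate 2 or hemin replicate 2. PDIA3 and PDIA6 lost it without untreated replicate 2 or hemin replicate 1, and CALR without any 1 library. HSPA5 passed under all 13 alternatives, with a log2 fold change between -0.84 and -0.77 and an adjusted p of at most 0.0307, whereas the other 12 did not pass by limma on log2 TPM. That test called 11 lower and 10 higher genes in all with a pseudocount of 1.

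The posterior SD from RSEM, which describes how reads shared between genes were divided, was at most 0.266% of the count in any library for these 13 genes, and 7 of the 13 shared no exonic base with another annotated gene. The other 6 (HSP90B1, HYOU1, CALR, PDIA3, PDIA6 and EDEM1) overlap exons of neighbouring genes, and no strand setting is named for the counting, so reads of the overlapping parts cannot be told apart by strand.

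**Figure D5:**
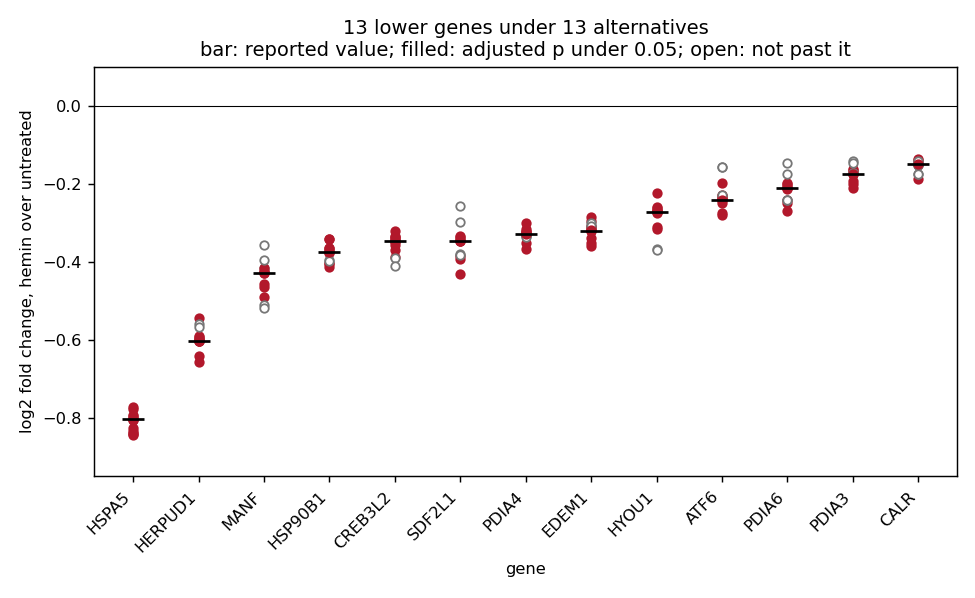
Log2 fold change of hemin-treated over untreated cells (y axis) for the 13 lower ER genes as reported (black bars) and under 13 alternative settings (circles). Filled circles passed an adjusted p under 0.05 and open circles did not. No circle reaches 0, and HSPA5, between -0.84 and -0.77, is the gene with no open circle.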

How the data were processed

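RNA was sequenced by the authors in 50-base reads, trimmed with Trimmomatic 0.39 and quantified with RSEM 1.3.1 and STAR 2.7.5c on GRCh38 with Ensembl 106, per the labels and methods. The deposited expected counts are unnormalized read estimates in which a read that matches several genes is divided among them. The authors' TPM are scaled by effective length and library total. The deposited posterior mean counts and posterior SD come from RSEM's sampling. The deposited FPKM were not used here.

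Expected counts were rounded, filtered with filterByExpr (14458 of 61498 genes) and given TMM factors, and edgeR 4.0.16 (R 4.3.3) was run with its quasi-likelihood test (condition only, Benjamini-Hochberg, 0.05). Limma 3.58.1 and DESeq2 1.42.0 were alternatives, with log2(TPM + 1) or log2(TPM + 0.1) for limma (genes at 1 TPM or more in a library), other scalings and filters, a replicate block, posterior mean counts, and each library left out, the lone library being assumed to vary like the others. A count of 0 allows up to 3 counts, for counting error only.

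The members, lists and tests were chosen with earlier results of these data known. Every member is named. Library values are given for each, and in each wider list the called genes with the largest rise and fall are named. Gene positions are from GENCODE 44 (GRCh38), which held 61399 of the 61498 identifiers. Promoters are from RefSeq (GRCh38.p14). Protein sequences and the chromatin contact data were not analysed here. A marker of another cell type is not reported here.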

Additional observations from a re-analysis of the deposited data

How the results depend on the processing

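The 13 lower members numbered 13 with RLE factors, 16 with library size only, 12 with DESeq2, 15 with no count filter, 16 with a minimum of 20 counts, 15 on posterior mean counts, 9 to 11 with a library left out (9 without untreated replicate 2), and 1 by limma on either TPM scale. CANX was the 1 higher member with DESeq2 and without hemin replicate 1 (leave-one-out range 0 to 1). Over all genes, 1033 lower and 1012 higher became 484 and 602 with DESeq2, 11 and 10 by limma on log2(TPM + 1), 4 and 4 on log2(TPM + 0.1), and 1358 and 729 with library size only, whose median shift was -0.0434. With a library left out they were 512 to 884 lower and 469 to 934 higher, lowest without untreated replicate 1. The wider lists, 13 lower and 3 higher, gave 6 and 1 with DESeq2, 0 and 0 by limma, 5 to 12 and 1 to 3 with a library left out, and 6 higher with no count filter, 5 with the count minimum of 20 and 6 on posterior mean counts. The median of the ATF6 targets was -0.43 to -0.33 with a library left out. That of the folding genes was -0.25 with library size only and -0.27 to -0.16 with a library left out. The causes were not tested.

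Signs turned only in members that did not pass. With library size only, XBP1 was at -0.02 and TXNDC5 at -0.033. By limma, with a pseudocount of 1 and of 0.1, DNAJB9 was at 0.052 and 0.053, TXNDC5 at -0.032 and -0.033, DERL1 at -0.1 and -0.101, OS9 at 0.068 and 0.069, and SEC61A1 at -0.039 and -0.04. With a library left out, XBP1 ran from -0.046 to 0.088, DNAJB9 from -0.248 to 0.06, TXNDC5 from -0.03 to 0.05, DERL1 from -0.047 to 0.142, DERL3 from -0.048 to 0.379, OS9 from -0.022 to 0.001, SELENOS from -0.258 to 0.08 and SEC61B from -0.108 to 0.185. Each alternative was computed for the 36 tested members and for SIL1, SPCS2, MAN1B1, VCP, NUCB1, DDIT3, SEC24B and SEC24D. Of these values, the others kept their direction, with 79 no longer past the threshold and 15 newly past it.

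With the replicate number as a block, 13 members were lower, with CALR lost and DNAJB11 gained. The labels give no origin for the numbers. Over all tested genes, the deviations of same-numbered libraries correlated at 0.005. A single correlation over all genes cannot show whether same-numbered libraries shared an origin, so any pairing remains unknown. Changes are limited to 2 libraries per condition and to genes with enough reads, with standard errors of 0.16 to 0.29 on the log2 scale for SELENOK, DERL3 and ERO1B.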
